A study of Homo sapiens with 8 samples.

Results

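The HOX genes encode homeodomain transcription factors and lie in 4 clusters in the human genome. All genes of the tables whose symbol is HOX, a cluster letter from A to D and a number were taken as members, which gave 39 of 28265 genes. The HOXA cluster holds 11 of them, HOXB 10, HOXC 9 and HOXD 9.

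The genes of a cluster are read in one direction and are numbered from the 3′ end of the cluster to its 5′ end. In the embryo, low-numbered genes are switched on earlier and nearer the head than high-numbered ones, and the set that stays active in a fibroblast reflects the place in the body from which it came. HOX proteins bind DNA together with cofactors of the PBX, MEIS and PKNOX families. Polycomb complexes keep silent HOX genes repressed, while the trithorax-type methyltransferase KMT2A and retinoic acid receptors act on their activation.

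Factory RNA-Seq, which collects nascent RNA that stays attached to sites of transcription, was applied to IMR90, primary fibroblasts from fetal human lung. Of 8 low-passage libraries, 2 were made from control cells, called young in the labels, 2 after 3 days and 2 after 6 days with inflachromene (ICM), and 2 carry the label MetaICM. ICM is a compound directed at the HMGB proteins, which bend DNA and help organise chromatin. The series design states low passage and MetaICM treatment for the last pair of libraries, and what MetaICM is was not given in the sources used here, nor was its duration. The labels name no further allele or agent for any library and do not say whether control cells received the solvent. They give poly(A) selection, so the exonic counts can include finished transcripts.

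The libraries held 12095123 to 23166405 read pairs counted on exons. CPM values (read pairs scaled to the library's size) used TMM factors, and levels of different genes were compared only per kilobase of exon (RPKM). No source states that the 2 libraries of a condition came from separate cultures, so the p-values measure the spread between these libraries, which may be technical. The control libraries differed most from each other, with a chi-square per degree of freedom of 22.7 against 5.44 to 10.7 for the other pairs. In bulk RNA, fewer cells of a kind and less RNA per cell cannot be told apart.

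The labelled cell type was checked with marker genes. The 11 lung fibroblast markers summed to 21802 to 22068 CPM in control, 12613 to 13958 CPM after 3 days, 10519 to 10865 CPM after 6 days and 19182 to 20055 CPM in MetaICM. The 5 epithelial markers summed to between 0.0919 and 1.29 CPM, with NKX2-1, a defining factor of lung epithelium, at 0 in every library. The 5 endothelial markers summed to 130.4 to 234 CPM, almost all of it from TEK, while PECAM1 had at most 9 counts in a library. The 5 leukocyte markers summed to 4.55 to 6.18 CPM in control, 16.99 to 21.3 CPM after 3 days, 18.5 to 20.8 CPM after 6 days and 13.2 to 13.5 CPM in MetaICM, mostly from the lysosomal gene CD68, with the T cell gene CD3E at 0.

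RNA of the HOX genes came almost entirely from 2 of the 4 clusters. Over all libraries, the HOXB genes received 11189 pairs (79.0% of HOX pairs), the HOXA genes 2807 (19.8%), the HOXC genes 167 (1.18%) and the HOXD genes 3 (0.0212%). On hg19 (GRCh37), the HOXB genes span chr17:46605888-46806112 and the HOXA genes lie on chromosome 7, both transcribed from the minus strand. The HOXC genes span chr12:54332615-54449814 and the HOXD genes chr2:176957449-177055635, both transcribed from the plus strand.

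Within HOXA and HOXB, the level depended on position. HOXA2 to HOXA7 and HOXB2 to HOXB8 formed 2 unbroken stretches with counts in every library. Outside them, HOXA9, HOXA10, HOXA11, HOXA13, HOXB1 and HOXB9 had at most 2 counts in any library, and HOXB13 had none. HOXA7 had few pairs too, with 1504 of its 2013 exon bases shared with HOXA-AS3 on the opposite strand. HOXA9 shares 1494 of its 2064 exon bases with the readthrough transcript HOXA10-HOXA9. Since pairs that fell on several genes were not counted, the levels of HOXA7 and HOXA9 are uncertain.

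**Figure D1:**
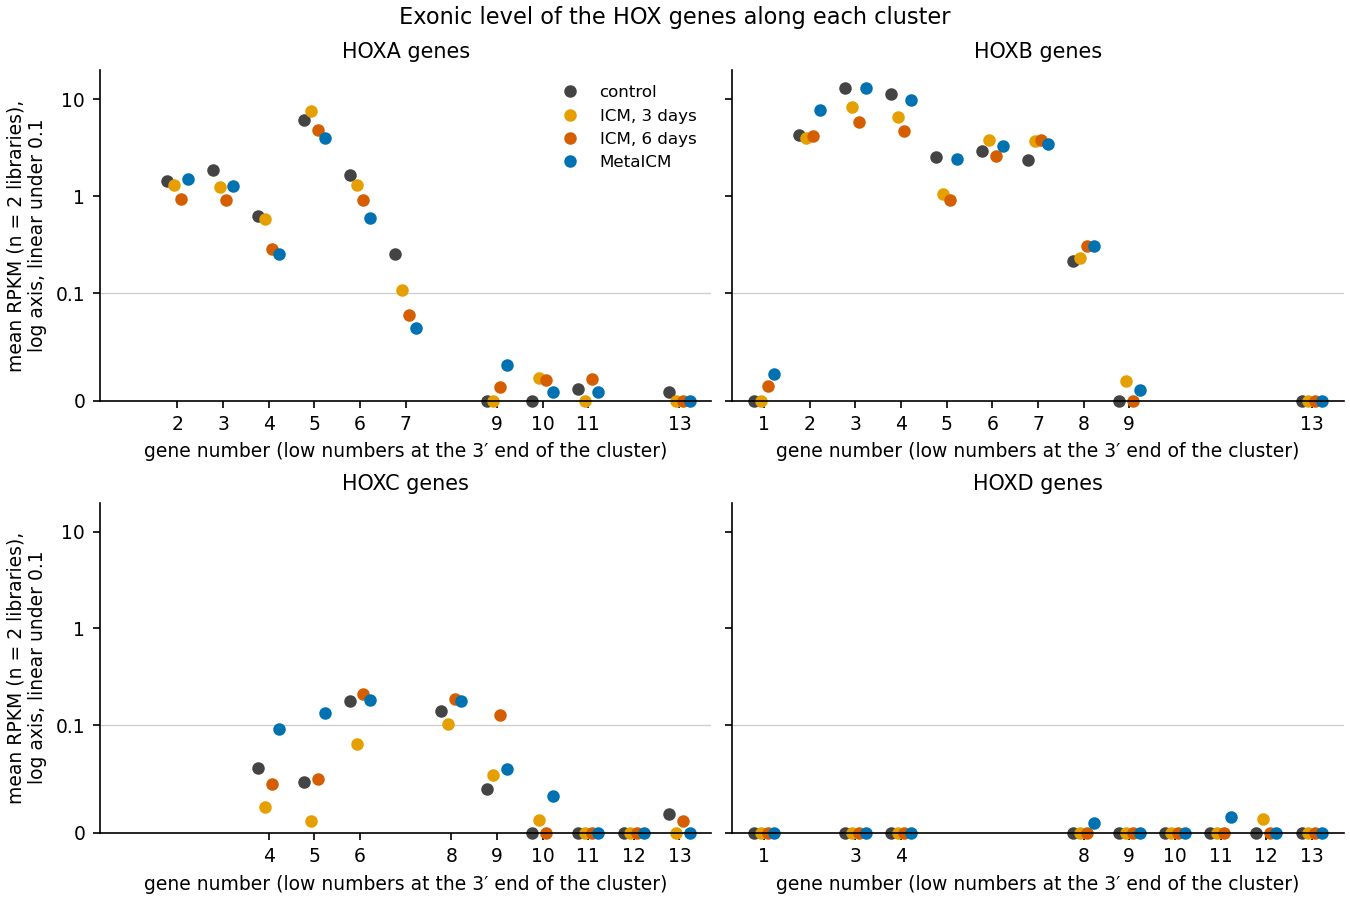
Mean RPKM of the HOX genes (n = 2 libraries per condition) against its number in the cluster, in 4 panels for HOXA, HOXB, HOXC and HOXD. The vertical axis is logarithmic and linear under 0.1 RPKM. Counts lie in HOXA2 to HOXA7 and HOXB2 to HOXB8, HOXC stays near or under 0.2 RPKM, and HOXD is at or near 0.

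Per length, HOXB3 and HOXB4 led in control cells, with 13.2 ± 2.34 RPKM (SD, n = 2) and 11.4 ± 1.19 RPKM, a gap smaller than the spread of HOXB3. HOXA5, a gene with known roles in lung development, followed with 6.16 ± 0.197 RPKM, and HOXB2 with 4.27 ± 0.565 RPKM. HOXB6 (2.93 ± 0.423 RPKM), HOXB5 (2.53 ± 0.990 RPKM) and HOXB7 (2.37 ± 0.169 RPKM) came next, and HOXB5 lay within its own spread of the other two. HOXA3, HOXA6 and HOXA2 had means of 1.86, 1.64 and 1.42 RPKM, and the other HOXA and HOXB genes of the 2 stretches had between 0.213 and 0.619 RPKM. Over the exon bases that it shares with no other gene, HOXA7 had 1.01 RPKM in place of 0.256 ± 0.278 RPKM. Both values rest on 2 and 11 counts in the control libraries.

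After ICM, the genes at the top lay closer together. After 3 days, HOXB3 had 8.38 ± 0.370 RPKM and HOXA5 7.55 ± 0.573 RPKM, and HOXB4 had 6.51 ± 1.08 RPKM, within its spread of HOXA5. After 6 days, HOXB3 (5.91 ± 0.398 RPKM), HOXA5 (4.84 ± 0.394 RPKM), HOXB4 (4.69 ± 1.03 RPKM) and HOXB2 (4.18 ± 0.149 RPKM) followed one another, and HOXA5 and HOXB2 lay within the spread of HOXB4. In MetaICM, HOXB3 (13.0 ± 0.585 RPKM) and HOXB4 (9.91 ± 0.951 RPKM) led, followed by HOXB2 (7.72 ± 0.430 RPKM) and HOXA5 (4.02 ± 0.450 RPKM). Leaving out the 279 exon bases that HOXB3 shares with HOXB-AS1 raised its control level to 14.2 RPKM and kept it in first place in every condition.

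HOXC and HOXD lay at the edge of detection. HOXC6 and HOXC8 had the most pairs of their cluster, and HOXC6 had 6 and 5 counts in control, 2 and 4 after 3 days, 10 and 7 after 6 days, and 10 and 7 in MetaICM. HOXC4, HOXC5 and HOXC6 share 527 exon bases, so pairs there were counted for none of them. HOXC11 and HOXC12 had no count. In HOXD, HOXD8, HOXD11 and HOXD12 had 1 count each in a single library and the other 6 genes had none. A count of 0 allows up to 3 counts, or 0.129 to 0.248 CPM depending on the library, and this covers counting error only.

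Promoter sequence was compared between members with and without counts. The RefSeq promoter table used here (GRCh38.p14, 250 bases before to 50 after each start) held 20 of the 39 HOX genes, with 27 starts. HOXA5, HOXB2 to HOXB9, HOXB13, HOXC6, HOXC8 to HOXC13 and HOXD9 were among those with no entry. Shown are the 250 bases before the start of HOXA2 and HOXA6, which had counts in every library, and of HOXA13 and HOXD10, which had 1 count and no count. All are written 5′ to 3′ on the strand of the gene with CG dinucleotides, the target of DNA methylation, in capitals. HOXA2 lies at chr7:27102684-27102933 (minus strand), HOXA6 at chr7:27147775-27148024 (minus), HOXA13 at chr7:27200092-27200341 (minus) and HOXD10 at chr2:176116528-176116777 (plus), all in GRCh38.p14.
HOXA2: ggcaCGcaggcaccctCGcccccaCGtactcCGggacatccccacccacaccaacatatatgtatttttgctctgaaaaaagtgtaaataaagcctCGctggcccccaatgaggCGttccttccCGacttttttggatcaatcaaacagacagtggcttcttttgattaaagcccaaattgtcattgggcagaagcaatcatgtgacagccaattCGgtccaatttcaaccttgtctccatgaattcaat
HOXA6: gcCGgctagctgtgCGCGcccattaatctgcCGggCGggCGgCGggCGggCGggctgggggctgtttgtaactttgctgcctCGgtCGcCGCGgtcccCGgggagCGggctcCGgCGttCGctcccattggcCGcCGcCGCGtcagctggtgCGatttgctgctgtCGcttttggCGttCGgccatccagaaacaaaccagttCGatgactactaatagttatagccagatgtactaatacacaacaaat
HOXA13: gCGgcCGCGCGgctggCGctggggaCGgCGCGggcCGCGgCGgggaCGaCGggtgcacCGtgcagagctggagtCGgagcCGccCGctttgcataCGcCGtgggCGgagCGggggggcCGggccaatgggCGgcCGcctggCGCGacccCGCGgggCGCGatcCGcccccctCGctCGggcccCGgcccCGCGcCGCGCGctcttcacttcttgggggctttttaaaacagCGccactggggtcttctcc
HOXD10: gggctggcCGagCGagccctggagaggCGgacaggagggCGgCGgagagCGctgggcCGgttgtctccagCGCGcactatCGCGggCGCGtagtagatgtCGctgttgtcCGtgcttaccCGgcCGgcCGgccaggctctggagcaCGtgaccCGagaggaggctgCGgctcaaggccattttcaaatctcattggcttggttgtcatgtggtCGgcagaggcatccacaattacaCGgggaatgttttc

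HOXA2 holds 8 CG in these bases, HOXA6 27, HOXA13 40 and HOXD10 23. Over the whole 300-base windows, the median was 22 CG for the 27 HOX starts, with a range of 0 to 44, against 14 for all 35116 promoters of the table (quartiles 4 and 28). The 14 starts of HOX genes with fewer than 10 pairs over all libraries had a median of 23.5 CG, and the 13 starts of HOX genes with 10 pairs or more had 15. Many of the latter starts belong to HOXA3 (0 to 29 CG), and HOXC4 and HOXC5 have the same start (15 CG), so they are not independent. Of the other genes with 10 pairs or more, HOXA4, HOXA6 and HOXA7 had 27, 29 and 31 CG, and HOXA2 had 11. The medians of starts therefore do not show which genes hold more CG. The letters TGATTGAT, a binding motif of HOX with PBX proteins, were searched on both strands and found in the windows of HOXA2 and HOXD11, and in 170 (0.484%) of all promoters.

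The summed RNA of the HOXB genes was lower in the ICM libraries than in control, and in MetaICM it was not. All 10 HOXB genes summed to 89.0 and 97.6 CPM in control, 65.8 and 66.1 CPM after 3 days, 52.6 and 49.3 CPM after 6 days, and 102.0 and 92.6 CPM in MetaICM. Relative to control, the mean was 0.707 after 3 days, 0.546 after 6 days and 1.04 in MetaICM. Both ICM time points lay below all control and MetaICM libraries. The summed fibroblast markers were also lowest after 6 days and near control in MetaICM, and their part in the HOXB levels was not tested. Collagen genes made up most of that sum, and the list did not move as one. Of its 10 genes tested, 5 were lower and 1 higher at each ICM time point, FOXF1 after 3 days and TCF21 after 6 days, both transcription factors of lung mesenchyme.

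The HOXA genes followed another pattern. Their sum was 19.98 and 26.9 CPM in control, 23.9 and 21.9 CPM after 3 days, 16.3 and 16.2 CPM after 6 days, and 15.9 and 16.2 CPM in MetaICM. The 3-day libraries lay between the control libraries, and both 6-day and MetaICM libraries lay below them. MetaICM thus had HOXB sums like control and HOXA sums like the 6-day libraries. The HOXA sums hide members whose means lay in opposite directions. HOXA2 had a mean of 2.57 CPM in MetaICM against 1.57 CPM after 6 days, and HOXA5 had 6.72 against 8.09 CPM. The difference of HOXA5 was not called (log2FC −0.26 ± 0.16, edgeR adjusted p = 0.173).

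**Figure D2:**
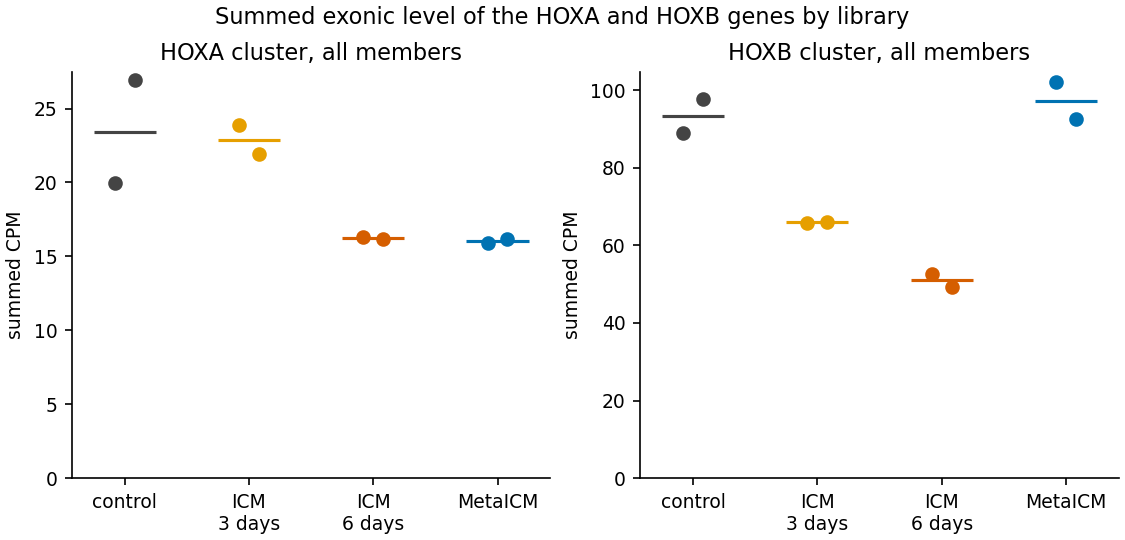
Summed CPM of all HOXA genes (left) and all HOXB genes (right) in each library, with points for the 2 libraries and a bar for their mean per condition. HOXB had a mean of 93.3 CPM in control, 51.0 CPM after 6 days and 97.3 CPM in MetaICM, whereas HOXA was 16.2 and 16.0 CPM in the same 2 conditions.

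Single genes were then tested in pairwise fits with edgeR (quasi-likelihood F test, p-values adjusted by Benjamini-Hochberg over all genes tested) and called with an adjusted p under 0.05 and an absolute log2FC over 0.6. Between 12 and 14 HOX genes had enough counts to be tested, among them HOXA2 to HOXA6 and HOXB2 to HOXB7. HOXB8 was tested in every comparison but 3 days against control, and HOXC8 in a single comparison. The other members, HOXA7, HOXA9 to HOXA13, HOXB1, HOXB9, HOXB13, nearly all of HOXC and all of HOXD, did not pass the filter on low counts. The 3 comparisons with control share the control libraries, so they are not independent of each other.

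After 3 days, 3 of 12 HOX genes tested were lower than in control, HOXB3, HOXB4 and HOXB5, which carry consecutive numbers in the cluster. Of all genes, 13.2% were called lower and 8.85% higher. None of the 12 HOX genes was called higher by edgeR, with 1 at an unadjusted p under 0.05 (HOXB7) and 0 by DESeq2. The median log2FC of the HOX genes tested was −0.13, against 0.01 for all genes. Without the second control library or the first 3-day library, 1 HOX gene was called lower, and without the first control library 4 were.

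After 6 days, 4 of 13 HOX genes tested were lower (HOXB3, HOXB4, HOXB5 and HOXA3) and HOXB7 was higher, against 17.2% lower and 13.3% higher among all genes. The median log2FC was −0.59 for the HOX genes and −0.00 for all genes. Between 3 and 5 HOX genes were called lower with each library left out in turn.

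In MetaICM, HOXB2 was higher than in control, and HOXA5 and HOXA6 were lower, out of 13 HOX genes tested. Among all genes, 7.41% were higher and 8.99% lower, and the medians were −0.02 for the HOX genes and −0.00 for all genes. The 2 lower calls were lost with DESeq2 (0 genes), without the second control library or without the second MetaICM library, while 4 genes were lower without the first control library.

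**Figure D3:**
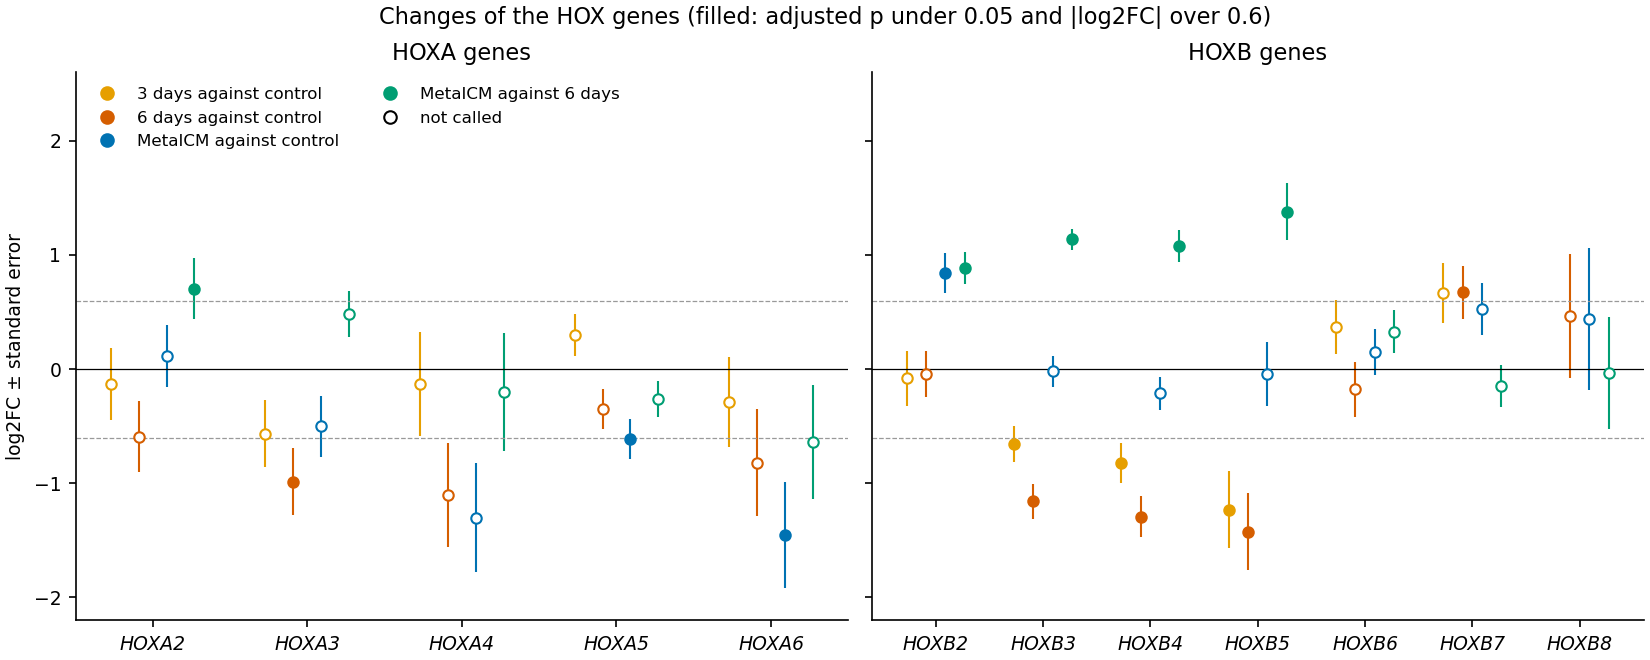
Log2FC with its standard error for HOXA2 to HOXA6 (left) and HOXB2 to HOXB8 (right), for 3 comparisons with control and for MetaICM against 6 days; filled points were called and dashed lines mark ±0.6. HOXB3, HOXB4 and HOXB5 lie below −0.6 at both ICM time points, near 0 in MetaICM against control and above 1 in MetaICM against 6 days. HOXB8 was not tested for 3 days against control and has no point there.

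HOXB3 and HOXB4, genes with known roles in hindbrain patterning and blood stem cells, carried most HOXB pairs. HOXB4 (chr17:46652869-46655712) lies inside the annotated span of HOXB3 (chr17:46626232-46659741) on the same strand, without shared exon bases. Unspliced HOXB3 RNA that crosses the HOXB4 exons would be counted for HOXB4, so their levels may not be separate measurements. This was not tested. HOXB3 had 43.3 and 55.8 CPM in control, 30.5 and 32.5 CPM after 3 days, 21.2 and 23.3 CPM after 6 days, and 50.4 and 47.3 CPM in MetaICM. Every ICM library lay below every control library, the 6-day libraries lay below the 3-day ones, and the MetaICM libraries lay between the control libraries. The log2FC was −0.66 ± 0.16 (standard error) after 3 days (adjusted p = 0.00816 from edgeR) and −1.16 ± 0.15 after 6 days (adjusted p = 0.000199, a 2.23-fold decrease). The 3-day call was lost with library totals in place of TMM (−0.58), without the second control library (−0.48) and without the first 3-day library (adjusted p = 0.0792), with adjusted p-values of 9.24e-07 to 0.0792 over all alternatives.

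HOXB4 had 24.6 and 21.2 CPM in control, 11.5 and 14.6 CPM after 3 days, 10.8 and 7.92 CPM after 6 days, and 21.2 and 18.5 CPM in MetaICM. The ICM libraries lay below all others, and those of MetaICM reached up to the lower control library. Its log2FC was −0.83 ± 0.18 after 3 days (edgeR adjusted p = 0.00426) and −1.29 ± 0.18 after 6 days (edgeR adjusted p = 0.000303). The 3-day call was lost without the first 3-day library (log2FC −0.67, adjusted p = 0.0779).

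HOXB5 is expressed in developing lung mesenchyme and lies next to HOXB4. It had 3.33 and 5.88 CPM in control, 2.07 and 1.75 CPM after 3 days, 1.93 and 1.43 CPM after 6 days, and 4.85 and 3.95 CPM in MetaICM. Again the ICM libraries did not overlap with control, although the control libraries themselves differed widely. Its log2FC was −1.23 ± 0.34 after 3 days (edgeR adjusted p = 0.0165) and −1.43 ± 0.34 after 6 days (edgeR adjusted p = 0.00695), the largest decrease of the HOX genes called at either time. The 3-day call was lost without the second control library (−0.81, adjusted p = 0.104) and without the second 3-day library (−1.11, adjusted p = 0.0590).

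At 6 days, the calls of HOXB3, HOXB4 and HOXB5 held in every alternative run, including each library left out. Against control, edgeR called none of the 3 in MetaICM, with log2FC of −0.02 ± 0.14 for HOXB3, −0.21 ± 0.14 for HOXB4 and −0.04 ± 0.28 for HOXB5, and adjusted p-values of 0.923, 0.290 and 0.928. Compared directly with 6 days, MetaICM was higher in all 3. The log2FC was 1.14 ± 0.09 for HOXB3 (edgeR adjusted p = 6.78e-10), 1.08 ± 0.14 for HOXB4 (edgeR adjusted p = 1.07e-06) and 1.38 ± 0.25 for HOXB5 (edgeR adjusted p = 7.37e-05). These calls held in every alternative run.

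The 3 genes were also taken as a share of the HOXB total. They were grouped because they were called lower after ICM, so a smaller share there follows from that choice. HOXB3, HOXB4 and HOXB5 together made up 80.0% and 84.9% of HOXB CPM in control, 67.0% and 73.8% after 3 days, 64.5% and 66.2% after 6 days, and 74.95% and 75.3% in MetaICM. In MetaICM none of the 3 was called against control, while HOXB2 was called higher. The genes on either side of the 3, HOXB2 and HOXB6, were not called lower at either ICM time point.

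HOXB2, on the 3′ side, had 7.49 and 6.21 CPM in control, 7.40 and 5.53 CPM after 3 days, 6.87 and 6.53 CPM after 6 days, and 12.9 and 11.9 CPM in MetaICM. Only the MetaICM libraries stood apart. The log2FC against control was −0.08 ± 0.24 after 3 days, −0.04 ± 0.20 after 6 days and 0.84 ± 0.18 in MetaICM (edgeR adjusted p = 0.834, 0.879 and 0.00743). Without the first MetaICM library, the last call was lost (log2FC 0.81, adjusted p = 0.0599). MetaICM was also higher than 6 days, by 0.88 ± 0.14 (edgeR adjusted p = 2.16e-05), in every alternative run.

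HOXB6, on the 5′ side, had 6.30 and 5.13 CPM in control, 8.18 and 6.61 CPM after 3 days, 5.96 and 4.25 CPM after 6 days, and 6.73 and 6.08 CPM in MetaICM. No comparison of all libraries called it. HOXB7 had 3.39 and 3.06 CPM in control, 5.70 and 4.52 CPM after 3 days, 4.94 and 5.42 CPM after 6 days, and 4.80 and 4.56 CPM in MetaICM, so all treated libraries lay above control. Its log2FC was 0.66 ± 0.27 after 3 days, 0.67 ± 0.23 after 6 days and 0.53 ± 0.22 in MetaICM (edgeR adjusted p = 0.0805, 0.0374 and 0.106). The 6-day call was lost with DESeq2 (adjusted p = 0.140), without the second control library (adjusted p = 0.0509) and without either 6-day library (0.125 and 0.221), while a fit with the replicate number as a block called the 3-day value (adjusted p = 0.0343). HOXB8 had between 0.322 and 0.990 CPM. It was not tested for 3 days against control and was not called in the other comparisons.

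**Figure D4:**
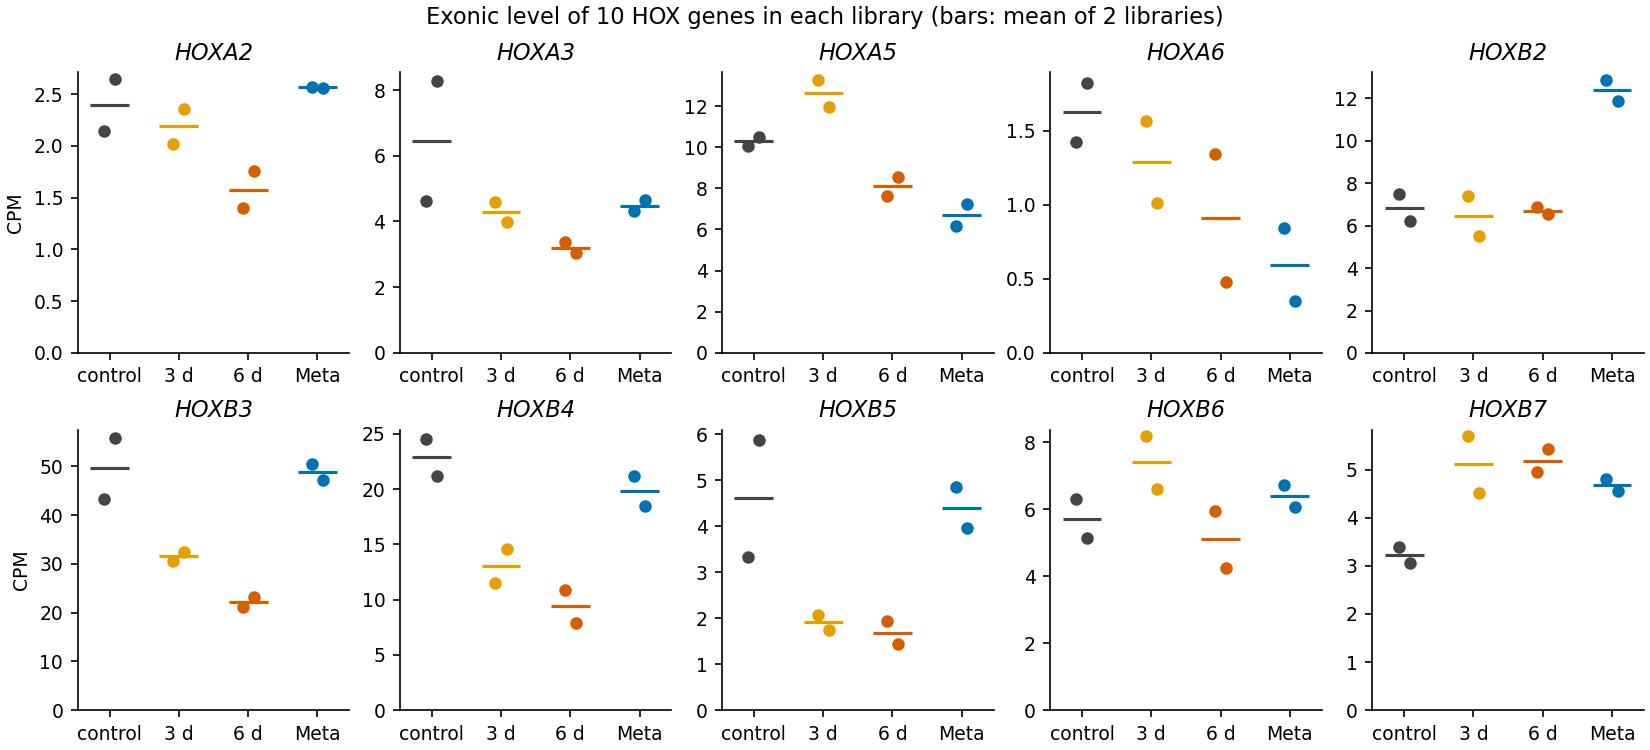
CPM of 10 HOX genes in each library, with points for the 2 libraries and bars for their mean, in control, after 3 days (3 d) and 6 days (6 d) of ICM and in MetaICM (Meta); each axis starts at 0. HOXB3, HOXB4 and HOXB5 are lowest in the ICM libraries, HOXB2 is highest in MetaICM, and HOXB7 is lowest in control.

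In HOXA, every call against control was a lower one. HOXA3, the group 3 paralog of HOXB3 that is needed for pharyngeal organs, had 4.64 and 8.28 CPM in control, 4.60 and 3.98 CPM after 3 days, 3.38 and 3.03 CPM after 6 days, and 4.31 and 4.65 CPM in MetaICM. The control libraries differed more than any treated pair. Its log2FC was −0.57 ± 0.30 after 3 days, −0.99 ± 0.29 after 6 days and −0.50 ± 0.27 in MetaICM (edgeR adjusted p = 0.175, 0.0205 and 0.189). The second control library decided these values. Without it, the 6-day log2FC was −0.53 (adjusted p = 0.105), and without the first control library the 3-day and MetaICM values were also called (−0.94 and −0.88). The 6-day call was also lost without the second 6-day library (−0.91, adjusted p = 0.0741) and with all genes that had a count in the fit (adjusted p = 0.0526).

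HOXA5 had 10.05 and 10.5 CPM in control, 13.3 and 11.9 CPM after 3 days, 7.62 and 8.55 CPM after 6 days, and 6.19 and 7.25 CPM in MetaICM. The 3-day libraries lay above control and the 6-day and MetaICM libraries below it. Against control, the log2FC was 0.30 ± 0.19 after 3 days, −0.35 ± 0.18 after 6 days and −0.61 ± 0.18 in MetaICM (edgeR adjusted p = 0.257, 0.137 and 0.0297). The MetaICM call lies next to the minimum of 0.6 and was lost with DESeq2 (adjusted p = 0.0706), library totals (−0.59), all genes with a count (−0.58), and without the second control library (−0.58), the first MetaICM library (−0.48) or the second (adjusted p = 0.143).

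Between the ICM time points, HOXA5 was the single HOX gene called, 0.65 ± 0.16 lower on the log2 scale after 6 than after 3 days (edgeR adjusted p = 0.00700). Without the first 3-day or the first 6-day library, its log2FC was −0.56 or −0.55, under the minimum. Of all genes, 4.54% were lower and 3.53% higher in this comparison. None of 13 HOX genes was called higher by edgeR, with 0 at an unadjusted p under 0.05 and 0 by DESeq2, and HOXB3 passed the adjusted p but not the minimum change (log2FC −0.51 ± 0.11, edgeR adjusted p = 0.00405). HOXB4 (−0.47, adjusted p = 0.0698) was called lower without the first 3-day library (−0.63) or the first 6-day library (−0.70), and HOXB6 (−0.55, adjusted p = 0.0740) without the second 3-day library (−0.69) or the first 6-day library (−0.80), all by edgeR.

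HOXA6 had 1.43 and 1.82 CPM in control, 1.56 and 1.01 CPM after 3 days, 1.34 and 0.478 CPM after 6 days, and 0.842 and 0.347 CPM in MetaICM. The MetaICM libraries lay below control but held only 17 and 8 counts. The log2FC in MetaICM was −1.45 ± 0.46 (edgeR adjusted p = 0.0401), and the call was lost with DESeq2 (adjusted p = 0.108), without the second control library (−1.29, adjusted p = 0.0554) and without the second MetaICM library (−0.92, adjusted p = 0.386). After 3 and 6 days it was −0.29 ± 0.39 and −0.82 ± 0.47 (edgeR adjusted p = 0.623 and 0.186).

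HOXA2, a patterning gene of the hindbrain and the second pharyngeal arch, was called in the comparison of MetaICM with 6 days and is named after its values were seen. It had 2.14 and 2.65 CPM in control, 2.02 and 2.36 CPM after 3 days, 1.40 and 1.75 CPM after 6 days, and 2.57 and 2.56 CPM in MetaICM, so the 6-day libraries were lowest. The log2FC of MetaICM against 6 days was 0.70 ± 0.27 (edgeR adjusted p = 0.0324), and the call was lost with DESeq2 (adjusted p = 0.178), with all 8 libraries in one fit (adjusted p = 0.0544), and without the first 6-day (0.54), first MetaICM (adjusted p = 0.0882) or second MetaICM library (adjusted p = 0.113). With HOXB2, HOXB3, HOXB4 and HOXB5 it made 5 of 14 HOX genes higher in that comparison, against 15.7% of all genes higher and 12.0% lower. None was called lower by edgeR, with 1 at an unadjusted p under 0.05 and 0 by DESeq2.

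Other transcripts inside the clusters were mostly too low to test. Of 26, mainly antisense and microRNA genes, 5 were tested after 3 and 6 days, and none was called in either direction by edgeR. At an unadjusted p under 0.05, 2 were higher after 3 days and 1 lower after 6 days, and DESeq2 called 0. HOTAIRM1, a long noncoding RNA of the HOXA cluster, had the most pairs, with 12.9 ± 1.57 CPM in control, 17.4 ± 1.77 CPM after 3 days, 16.5 ± 1.75 CPM after 6 days and 13.4 ± 1.83 CPM in MetaICM. Its log2FC against control was 0.43, 0.35 and 0.04 (edgeR adjusted p = 0.0924, 0.114 and 0.867). HOXB-AS3, which overlaps HOXB5 and HOXB6 on the opposite strand, was higher in MetaICM than in control (0.83 ± 0.27, edgeR adjusted p = 0.0444), with 57 and 60 counts in control, 78 and 59 after 3 days, 71 and 77 after 6 days, and 179 and 134 in MetaICM. DESeq2 did not call it. Pairs on the exon bases it shares with HOXB5 (73) and HOXB6 (166) were not counted. The counting ignored strand, so on its other exon bases the strand of a pair is not known.

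Of 67 genes within 500 kb of a cluster, 32 to 34 were tested. After 3 days 3 were higher (SMUG1, B4GALNT2 and TARBP2) and 5 lower, including the heterochromatin gene CBX5 near HOXC, out of 32, beside 8.85% and 13.2% of all genes. After 6 days 7 of 34 were higher and 8 lower (13.3% and 17.2% of all genes), and in MetaICM 4 of 33 each way (7.41% and 8.99%). Next to HOXB, 1 of 10 tested was called after 3 days, B4GALNT2 as higher, and after 6 days 3 of 12 were higher (ATP5MC1, B4GALNT2 and COPZ2) and IGF2BP1 was lower.

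Several HOX cofactor genes fell after ICM. Of 9 tested, 4 were lower after 3 days (PBX3, PBX4, MEIS2 and PKNOX2) and 5 after 6 days (PBX3, PBX4, MEIS1, PKNOX1 and PKNOX2), beside 13.2% and 17.2% of all genes. DESeq2 called 2 and 4. PBX4 had few counts, with 20 and 16 in control, 12 and 3 after 3 days, and 1 and 12 after 6 days. None was called higher against control by edgeR, with 0 at an unadjusted p under 0.05 and 0 by DESeq2 in each of the 3 comparisons. The median log2FC of the 9 was −0.36, −0.76 and −0.28. PBX3 fell from 16.9 ± 3.62 CPM in control to 6.91 ± 1.28 CPM after 3 days (log2FC −1.27, edgeR adjusted p = 0.00108) and 8.52 ± 0.479 CPM after 6 days (−0.98, edgeR adjusted p = 0.00214), and had 11.6 ± 0.917 CPM in MetaICM. MEIS1 had 163.6 ± 17.1 CPM in control, 132.0 ± 9.05 CPM after 3 days, 93.6 ± 2.51 CPM after 6 days (log2FC −0.81, edgeR adjusted p = 0.000380) and 135.1 ± 3.58 CPM in MetaICM. Compared with 6 days, 2 of the 9 were higher in MetaICM, PBX4 and PKNOX2, beside 15.7% of all genes higher and 12.0% lower. In that comparison edgeR called 0 lower, with 1 at an unadjusted p under 0.05 and 0 by DESeq2.

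**Figure D5:**
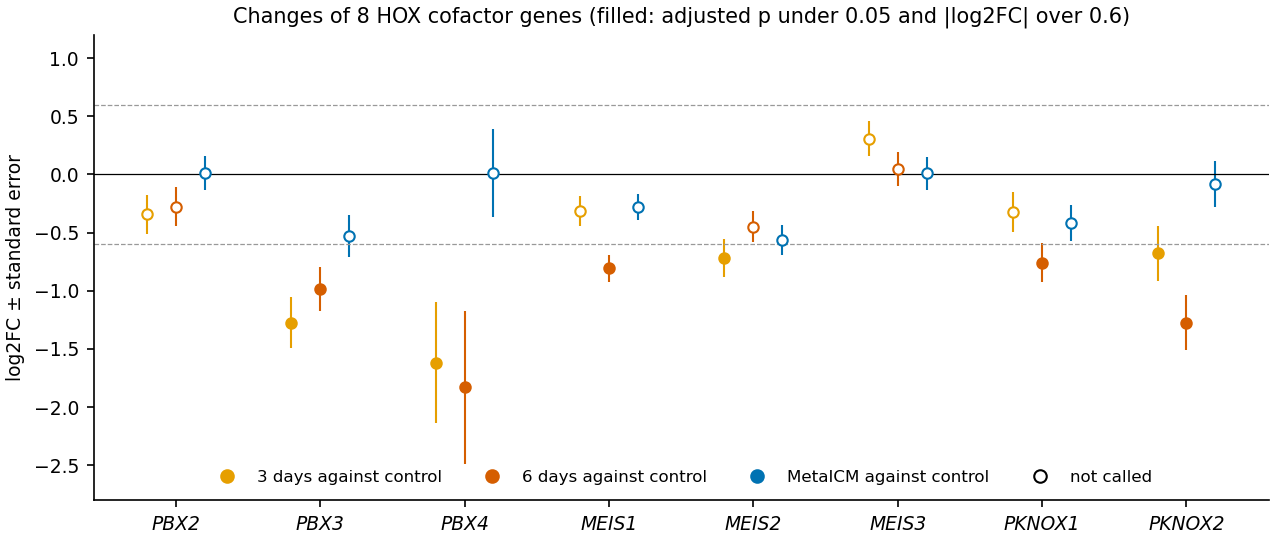
Log2FC with its standard error for 8 HOX cofactor genes in 3 comparisons with control; filled points were called and dashed lines mark ±0.6. PBX3, PBX4 and PKNOX2 were lower after both 3 and 6 days and were not called in MetaICM. PBX4 had 1 to 12 counts in the ICM libraries.

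Of 30 genes that regulate HOX clusters, 27 were tested, and the 3 CDX genes, upstream activators in the embryo, were not. After 3 days 2 were higher (RARB and RING1) and 6 lower (EZH2, JARID2, PSIP1, WDR5, PCGF2 and CBX2), beside 8.85% and 13.2% of all genes. After 6 days RARB and CBX7 were among those higher and 8 were lower (EZH2, WDR5, CTCF, RARA, DOT1L, PCGF2, CBX2 and KDM6B), beside 13.3% and 17.2% of all genes. In MetaICM 4 were lower (JARID2, RARB, KMT2A and KDM6B; 8.99% of all genes) and none higher by edgeR, with 5 higher at an unadjusted p under 0.05 and 0 by DESeq2. The list medians were −0.16, −0.11 and −0.20.

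Within this list the Polycomb genes EZH2 and CBX2 showed the largest falls after ICM. EZH2, the methyltransferase of Polycomb complex 2, had 42.4 ± 2.14 CPM in control, 8.70 ± 0.107 CPM after 3 days, 7.43 ± 1.19 CPM after 6 days and 33.5 ± 0.0335 CPM in MetaICM. Its log2FC was −2.28 and −2.51 after 3 and 6 days (edgeR adjusted p = 5.09e-07 and 9.83e-07) and −0.34 in MetaICM (edgeR adjusted p = 0.0560). CBX2, a reader subunit of Polycomb complex 1, changed by −1.69, −2.67 and −0.57 (edgeR adjusted p = 0.00116, 9.98e-05 and 0.0949).

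RARB, a retinoic acid receptor that is itself induced by retinoic acid, moved the other way. It had 5.63 ± 0.473 CPM in control, 16.5 ± 2.15 CPM after 3 days, 10.4 ± 0.829 CPM after 6 days and 2.91 ± 0.189 CPM in MetaICM. Its log2FC was 1.55, 0.88 and −0.95 (edgeR adjusted p = 0.000116, 0.00412 and 0.0121).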

How the data were processed

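Factory RNA-Seq was performed on 8 IMR90 libraries, 2 per condition. The authors aligned paired-end reads to GRCh37 with STAR (version 2.6.0c) and deposited raw counts of read pairs per RefSeq gene, made with featureCounts (version 1.6.3 in the file headers). Per the file headers, pairs were counted on exons and without strand, both ends had to map, and chimeric pairs were left out. Pairs on several genes were not counted. Intronic reads, on which the study's nascent RNA analysis rests, were not analysed here.

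From the deposited counts, pairwise edgeR (version 4.0.16, R 4.3.3) fits of 4 libraries were made with TMM factors, filterByExpr at a count minimum of 10, the quasi-likelihood test and Benjamini-Hochberg adjustment. Genes were called with an adjusted p under 0.05 and an absolute log2FC over 0.6. The standard error is the absolute log2FC divided by the square root of F. CPM used TMM factors over all 8 libraries, and RPKM is CPM per kilobase of exon. A count of 0 was read as up to 3 counts.

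The HOX genes were identified by symbol. Values in every library are given for each member called in a comparison with control and for the member of each cluster with the highest RPKM. For HOXD this was HOXD11, with 1 count. HOXA2 and HOXB6 were added after their values were seen. A few genes of these lists are not reported here. The members and gene lists were chosen with earlier results of these data known. Transcripts between the outermost HOX genes of a cluster, genes within 500 kb, and lists of cofactors, regulators and cell type markers were counted by the same rule.

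Alternatives were DESeq2 (version 1.42.0), DESeq2's size factors and library totals as scalings, all genes with a count, a joint fit of the 8 libraries, a block for the replicate number, an adjusted p under 0.01, no minimum change, exon bases of no other gene for RPKM, and each library left out in turn. With a library left out, the lone library is assumed to vary like the other condition. Replicates differed by more than sampling noise (chi-square per degree of freedom from 5.44 to 22.7), so none was merged. In simulated data with 200 changed genes, the test recovered 90% of them for 3 days against control, 92% for 6 days and 90% for MetaICM. It recovered 91% for 6 against 3 days and 95.5% for MetaICM against 6 days. False calls numbered 8, 6, 13, 2 and 5 in the same order. Recovery at the log2FC of the HOX genes was not tested. Python 3.11.15 with numpy 2.4.6, pandas 2.3.3 and matplotlib 3.10.9 was used for tables and figures.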

Additional observations from a re-analysis of the deposited data

Results flagged for a closer look

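Effects of 2 treated conditions differed by their direct comparison for 6 HOX gene results, tested with edgeR's quasi-likelihood test. HOXA5 had a log2FC of −0.65 for 6 against 3 days of ICM. MetaICM differed from 6 days of ICM in HOXA2 (0.70), HOXB2 (0.88), HOXB3 (1.14), HOXB4 (1.08) and HOXB5 (1.38). The libraries of the 2 conditions did not overlap in any of these 6 results. Because the 6 were picked by their calls, this adds no support. The share of all genes without overlap was not counted. The calls of HOXB2, HOXB3, HOXB4 and HOXB5 held with each library left out in turn, and those of HOXA5 and HOXA2 did not. With 2 libraries per condition, single libraries that stand apart could not be tested.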

How the results depend on the processing

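With 2 libraries per condition, the counts of HOX genes called are small and a single gene moves them. For 3 days against control, the count of higher genes was 1 in place of 0 in a joint fit of the 8 libraries and 1 with the replicate block (HOXB7 both times), and the count of lower genes was 1 to 4 with each library left out. For 6 days, the count of higher genes was 0 with DESeq2, 0 with an adjusted p under 0.01 and 0 to 1 with each library left out. For MetaICM against control, higher genes numbered 0 to 1 with each library left out, and lower genes numbered 0 with DESeq2, 1 with library totals, 1 with all genes that had a count, 0 with an adjusted p under 0.01 and 0 to 4 with each library left out. For 6 against 3 days, lower genes numbered 2 with no minimum of the log2FC and 1 to 2 with each library left out, and for MetaICM against 6 days 0 to 1. Of 500 recomputed log2FC, 442 kept direction and call, 30 lost the call, 8 gained it and 20 changed sign, all of the last from values that were not called. With library totals, the sign changed for HOXB2 at 6 days (0.0040), HOXB3 in MetaICM against control (0.00060, and 0.0094 with all genes that had a count) and HOXB7 for 6 against 3 days (−0.027). With each library left out, ranges that crossed 0 against control were, after 3 days, −0.28 to 0.0017 for HOXA2 and −0.33 to 0.12 for HOXB2, after 6 days −0.16 to 0.099 for HOXB2 and −0.43 to 0.055 for HOXB6, and in MetaICM −0.043 to 0.26 for HOXA2, −0.19 to 0.17 for HOXB3 and −0.42 to 0.40 for HOXB5. For 6 against 3 days they were −1.44 to 0.022 for HOXA6, −0.16 to 0.28 for HOXB2 and −0.15 to 0.20 for HOXB7, and for MetaICM against 6 days −1.36 to 0.27 for HOXA6. The cause of these changes was not tested. The labels do not state that replicate numbers pair libraries, and same-numbered libraries did not deviate together throughout (correlations of −0.07 to 0.29 over 14109 genes). The replicate block changed no other call of the genes recomputed. The RPKM of HOXB3 and HOXC6 over exon bases of no other gene moved by more than their spread in 3 and 2 of 4 conditions.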
